A study of Drosophila melanogaster with 2 samples.

Results

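Binding of Hnf4 near the genes for eukaryotic translation initiation factors was examined in whole Drosophila larvae. The genes were taken as every protein-coding gene whose symbol starts with eIF in the BDGP6 gene annotation of Drosophila melanogaster (Ensembl release 115), which gave 44 of 13986 protein-coding genes. The immunoprecipitated flies carried an insertion that fuses green fluorescent protein to Hnf4, the fly relative of the vertebrate nuclear receptors HNF4A and HNF4G, and chromatin was taken from wandering larvae of the third instar, males and females mixed. The sample description names an antibody against the fluorescent tag, whereas the antibody field names Hnf4 itself. There were 2 biological replicates of this strain and stage and no contrasting genotype, stage or treatment, so every comparison below sets the eIF genes beside all protein-coding genes of the same lists. The labels name a single tagged strain and whole animals, so a region cannot be assigned to a tissue.

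Translation initiation begins with a small ribosomal subunit that carries the initiator tRNA, brought by the eIF2 complex in its GTP form, together with eIF1, eIF1A, eIF5 and the scaffold complex eIF3. This assembly is loaded at the mRNA cap by eIF4F, made of the cap-binding protein eIF4E, the scaffold eIF4G and the helicase eIF4A, and it scans to the start codon before eIF5B joins the large subunit. The exchange factor eIF2B recharges eIF2, and phosphorylation of the eIF2 alpha subunit blocks that step under stress. Hnf4 in Drosophila is best known for genes of lipid catabolism, mitochondrial function and glucose homeostasis in the larval fat body, midgut and oenocytes.

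The regions came from 4 lists of the authors. The optimal list held 5817 regions that passed their reproducibility threshold, and relaxed lists, meant as input to that threshold and including background, held 30000 regions for the pooled replicates, 29999 for replicate 1 and 30000 for replicate 2. Each region carries the signal value of the authors' peak caller, whose scale is not stated and which is used here only to describe and rank regions within a list. The lowest signal value was 66.6 in the optimal list, 15.8 in the pooled list, 10.7 in the list of replicate 1 and 8.63 in the list of replicate 2. When each replicate list was limited to its 5817 strongest regions, 73.0% of those of replicate 1 had a partner in replicate 2. The lists give no read counts, so the depth behind each region is unknown and no counting interval can be given.

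A gene was counted as having a region when a summit, the highest point of a region, lay within 1000 bp of one of its transcription start sites (TSSs). By this rule 11 of the 44 eIF genes, 25.0%, had an optimal region, against 22.9% of all protein-coding genes, 3207 of 13986. A region of the pooled relaxed list was near 19 eIF genes, 43.2%, against 41.5% of all genes. The list of replicate 1 reached 20 eIF genes, 45.5%, against 44.7% of all genes, and the list of replicate 2 reached 22 of the 44 eIF genes, against 45.0% of all genes. These shares lay near the background of the genome in each list, so the eIF genes as a group did not stand out by their number of regions.

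Stricter readings gave the same picture of shares close to the background. Regions in both replicate lists were near 19 eIF genes, 43.2%, against 36.8% of all genes. Optimal regions that overlapped the strongest 5817 regions of each replicate were near 9 eIF genes, 20.5%, against 17.9% of all genes. When each optimal region was given only to the protein-coding gene with the nearest TSS, 10 eIF genes kept one, 22.7%, against 17.9% of all genes. By the same rule in the pooled relaxed list, 17 of the 44 eIF genes kept one, against 36.1% of all genes. No test was made, because one group of samples without a contrast allows none.

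**Figure D1:**
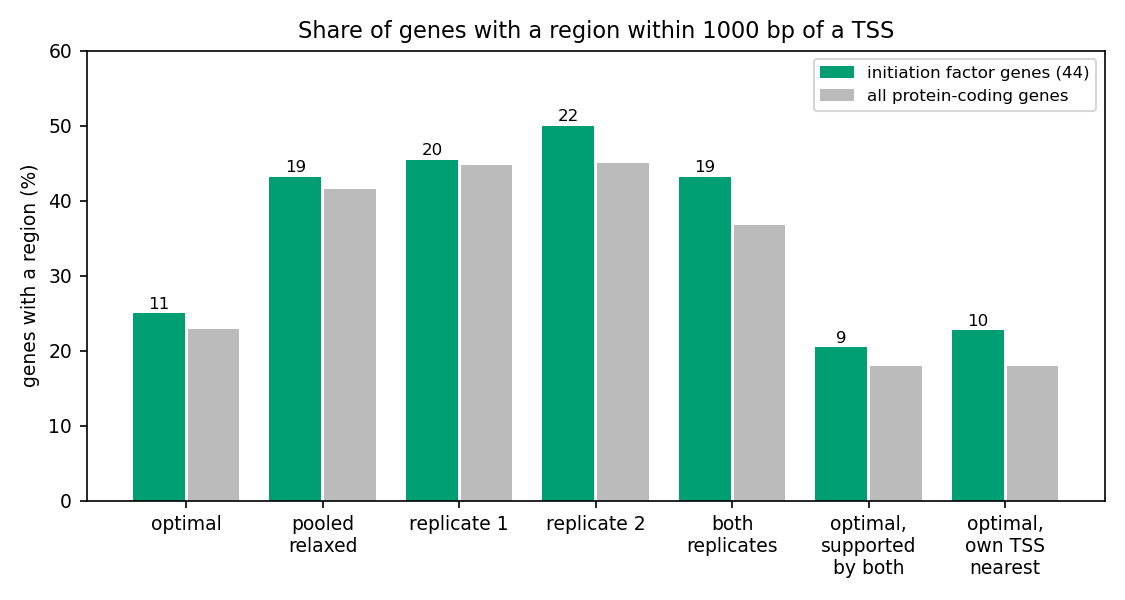
Percent of genes with a region within 1000 bp of a TSS, for the 44 eIF genes and for all 13986 protein-coding genes, in each list or call rule. The bars of the eIF genes stand at 25.0% for the optimal list and 43.2% for the pooled relaxed list, beside 22.9% and 41.5% for all genes.

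Among the 11 eIF genes with an optimal region, the signal value of the strongest region ran over a wide range, between 68.2 at eIF3f1 and 1882.6 at eIF2Bbeta. The median was 216 over these 11 genes, against 144 over the 3207 genes with an optimal region, and the quartiles were 178 and 331 for the eIF genes and 96.8 and 239 for all genes. The SD of the medians of the 2 replicate lists over the same 11 genes was 43.7, with medians of 154 in replicate 1 and 91.7 in replicate 2, which come from lists scaled on their own. These medians cover only genes that passed the threshold of the list and describe no other eIF gene. With each optimal region given only to its nearest gene, the medians were 191 for eIF genes and 134 for all genes. Among genes with a region in the pooled relaxed list they were close, 80.1 and 77.2. In the list of replicate 1 the eIF genes had the lower median, 43.5 against 51.5, and in that of replicate 2 the higher, 35.8 against 31.2.

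Of the guanine nucleotide exchange factor eIF2B, only the beta subunit had an optimal region, and it was the strongest at any eIF gene. eIF2Bbeta (FBgn0024996) lies on the X chromosome at chrX:2704571-2706217 on the plus strand in build dm6, and its region spans chrX:2703688-2704090. The signal value was 1882.6 in the pooled data, rank 5 of 5817, with 1021.5 in replicate 1 at rank 8 and 884 in replicate 2 at rank 4. Both replicate lists thus placed it among their 10 strongest regions, and of the 3207 genes with an optimal region 2 had a higher one. The summit at position 2703901 lies 670 bp upstream of the eIF2Bbeta TSS and 49 bp upstream of the TSS of Ugalt, which encodes a UDP-galactose transporter of the Golgi and is transcribed in the other direction. The lists do not tell which of these genes the region belongs to, and by the nearest TSS it is the promoter of Ugalt.

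The genes eIF2Balpha, eIF2Bdelta and eIF2Bepsilon, which encode further subunits of the same exchange factor, had no region in any of the 4 lists. At eIF2Bgamma a region was listed in replicate 2 only, with a signal value of 29.1, rank 5579 of 30000, and a summit 154 bp upstream of the TSS. An optimal region with a signal value of 500 lies 1272 bp upstream of eIF2Bgamma, just beyond the 1000 bp limit. The TSS of Vha36-1, a subunit of the vacuolar proton pump, lies 1226 bp from that of eIF2Bgamma and is its nearest neighbour.

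eIF6 (FBgn0034915) keeps the large ribosomal subunit from joining too early. It had the highest signal value among the eIF genes whose own TSS is the nearest protein-coding TSS to the summit. It is encoded on the minus strand of 2R at 23849246 to 23850301, and its region spans 23850224 to 23850568. The signal value was 903 in the pooled data, rank 47 of 5817, with 461 in replicate 1 at rank 64 and 441 in replicate 2 at rank 42. The replicates thus ranked it alike. Its summits lay 85 bp upstream of the TSS in the pooled list, 89 bp upstream in replicate 1 and 78 bp upstream in replicate 2. An exon of the antisense gene asRNA:CR45928 covers the pooled summit, which also lies inside the gene ytr, 687 bp downstream of the ytr TSS.

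eIF3 is the largest initiation factor, a scaffold of many subunits on the small ribosomal subunit, and 4 of its 16 genes had an optimal region. eIF3c (FBgn0034258), a core subunit, had a signal value of 342, rank 438 of 5817, with 170 in replicate 1 at rank 640 and 171 in replicate 2 at rank 327. eIF3h (FBgn0022023), a subunit of the part of eIF3 with MPN domains, had 307, rank 541, with 181 in replicate 1 at rank 569 and 113 in replicate 2 at rank 786. Both had strong regions in each replicate, with summits 14 and 1 bp upstream of the TSS in the pooled list. eIF3m (FBgn0033902), a subunit with a PCI domain, had 169, rank 1611, with 83.8 in replicate 1 at rank 2381 and 81.7 in replicate 2 at rank 1361.

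eIF3f1 (FBgn0037270), the second MPN-domain subunit, stood just inside the optimal list. Its signal value was 68.2, rank 5649 of 5817, against a lowest value of 66.6 in that list. It had 43.5 in replicate 1 at rank 6234 and 26.3 in replicate 2 at rank 6324, so it was not among the strongest 5817 of either replicate. The eIF3h summit lies in a 5′ UTR exon of the gene, 62 bp upstream of the TSS of senju, and the eIF3c and eIF3m regions also lie within 1000 bp of a TSS of CCHa1-R and of CG8323.

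Of the genes for eIF4F and the cap-binding proteins, eIF4EHP and eIF4A had optimal regions. eIF4EHP (FBgn0053100) encodes a cap-binding protein that does not recruit eIF4G and represses the translation of maternal mRNAs in the embryo. Its signal value was 320, rank 503 of 5817, with 189 in replicate 1 at rank 509 and 129 in replicate 2 at rank 603, and all 3 lists placed the summit 98 to 100 bp upstream of the TSS. A second optimal summit there, with a signal value of 258, lies 304 bp upstream of eIF4EHP and 72 bp from the TSS of CG18428. eIF4EHP thus had 2 separate summits between its own TSS and that of its neighbour.

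eIF4A (FBgn0001942), the RNA helicase of eIF4F, had a signal value of 194, rank 1304 of 5817, in a 5′ UTR exon 81 bp upstream of its nearest TSS. In replicate 1 it had 142 at rank 923, and in replicate 2 it had 49.6 at rank 2797 with a summit 109 bp downstream of a TSS. The replicates therefore differed in the place of the strongest summit as well as in its rank. A second optimal region of 103 lies 782 bp upstream of eIF4A and 36 bp downstream of the TSS of chic, which encodes profilin.

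The start codon factor eIF1 and the tRNA-binding proteins eIF2A and eIF2beta complete the 11 genes. eIF1 (FBgn0035423), which guards against initiation away from the start codon, had a signal value of 216, rank 1100 of 5817, with 154 in replicate 1 at rank 803 and 57.1 in replicate 2 at rank 2318. Its summit lies 326 bp upstream of eIF1 but 55 bp upstream of RpL28, a gene for a protein of the large ribosomal subunit. A second optimal region, of 150, lies 105 bp upstream of eIF1 itself, so eIF1 kept an optimal region when each was given to its nearest TSS.

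eIF2A (FBgn0037135) is a single protein able to bring initiator tRNA without the eIF2 complex. It had a signal value of 187, rank 1377 of 5817, with 98.2 in replicate 1 at rank 1819 and 91.7 in replicate 2 at rank 1130. All 3 lists placed its summit 68 bp upstream of a TSS, within a 5′ UTR exon of another transcript of the gene. eIF2beta (FBgn0004926), the eIF2 subunit that binds eIF5 and eIF2B, had 80.1, rank 4635 of 5817, with 43.1 in replicate 1 at rank 6326 and 30.7 in replicate 2 at rank 5215. With eIF3f1 it was the eIF gene whose optimal region did not overlap the strongest 5817 regions of both replicates.

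**Figure D2:**
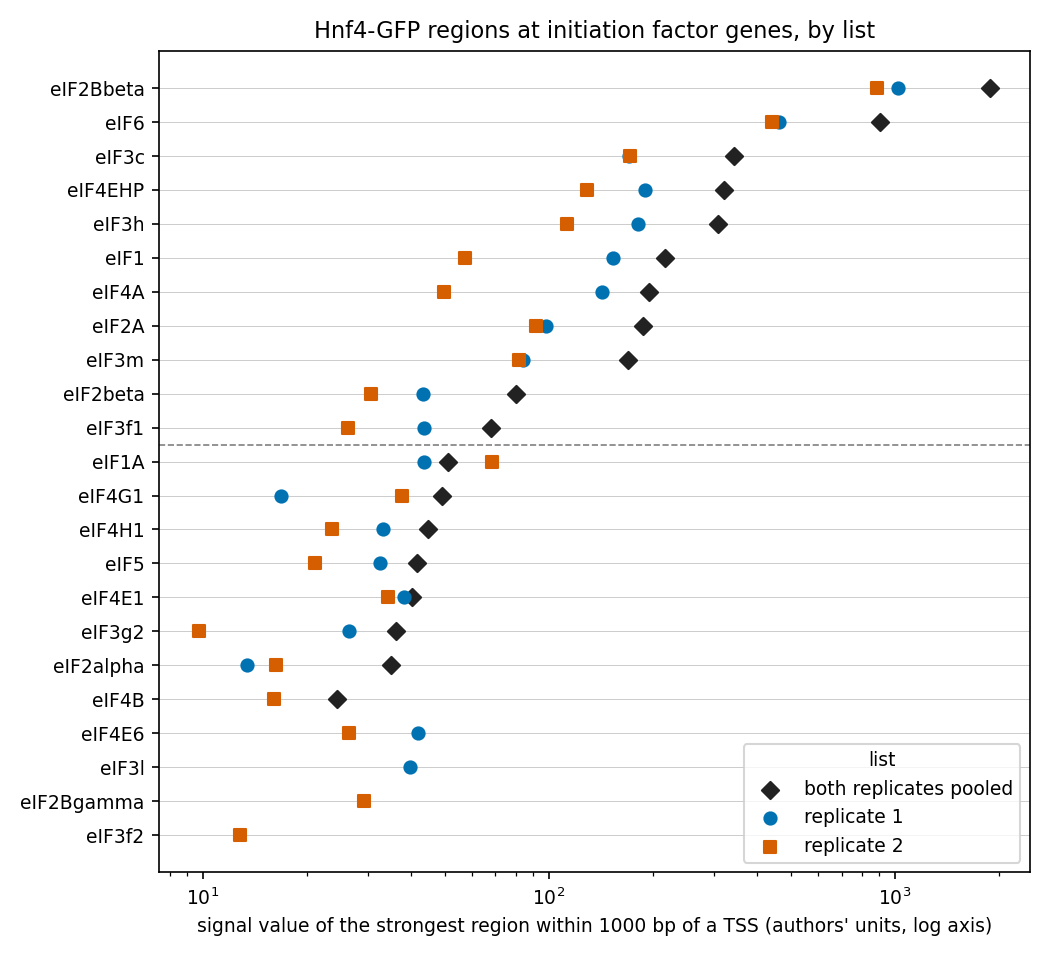
Signal value of the strongest region within 1000 bp of a TSS, on a log axis, for each eIF gene with a region, in the pooled list and in each replicate list. eIF2Bbeta stands highest in every list, at 1882.6 in the pooled list, and the 11 genes above the dashed line, which have an optimal region, reach down to 68.2 at eIF3f1.

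The sequences under the summits are printed for genes that carry the strongest regions or differ in where the summit falls, from the genome of RefSeq for Release 6 (dm6), 5′ to 3′ on the strand of the eIF gene. Each is the stretch within 100 bp of the summit that lies outside annotated UTRs, in lower case with TATCGATA in capitals. The eIF2Bbeta stretch is chrX:2703853-2704001 on the plus strand, 718 to 570 bp upstream of the eIF2Bbeta TSS, and the eIF4EHP stretch is chr3R:24108961-24109160 on the minus strand, the 200 bp upstream of its TSS. The eIF1 stretch is chr3L:3222961-3223115 on the plus strand, and the eIF3f1 stretch is chr3R:4714183-4714319 on the minus strand, which ends at the base before the TSS.
eIF2Bbeta: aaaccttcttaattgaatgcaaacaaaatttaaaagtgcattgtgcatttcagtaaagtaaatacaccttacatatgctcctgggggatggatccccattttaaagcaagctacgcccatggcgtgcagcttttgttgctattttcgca
eIF4EHP: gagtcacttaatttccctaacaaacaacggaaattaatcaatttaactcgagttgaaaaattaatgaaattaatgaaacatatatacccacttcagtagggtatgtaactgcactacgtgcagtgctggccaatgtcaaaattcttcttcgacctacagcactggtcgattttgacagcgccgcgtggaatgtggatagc
eIF1: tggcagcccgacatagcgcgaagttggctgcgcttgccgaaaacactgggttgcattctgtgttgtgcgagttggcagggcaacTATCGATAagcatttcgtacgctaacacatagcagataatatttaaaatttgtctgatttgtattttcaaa
eIF3f1: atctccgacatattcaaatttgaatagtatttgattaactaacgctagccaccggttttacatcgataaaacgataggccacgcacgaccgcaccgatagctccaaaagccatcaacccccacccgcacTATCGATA

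The optimal summits at the eIF genes lay upstream of the nearest TSS of the gene, most of them close to it. The strongest optimal summit was within 100 bp of the TSS at 8 of 11 eIF genes, 72.7%, against 1145 of 3207 genes with an optimal region, 35.7%. It lay upstream of the nearest TSS at 11 of 11 eIF genes, against 2469 of all 3207, 77.0%. At eIF2A, eIF3h and eIF4A this summit lies inside the gene, in a 5′ UTR exon, so it is not upstream of every TSS. The eIF3h summit counts as upstream by 1 bp, and in replicate 1 it lay 3 bp downstream. The median distance was 81 bp over the 11 eIF genes and 161 bp over all genes with an optimal region. The upstream shares were closer to those of all genes in the pooled relaxed list, where the strongest summit lay upstream at 15 of 19 eIF genes, 78.9%, against 72.5%, and within 100 bp at 10, 52.6%, against 30.8%. In the list of replicate 1 it lay upstream at 16 of 20 eIF genes, against 71.3% of all genes, and in that of replicate 2 at 21 of 22, 95.5%, against 73.1%. It lay within 100 bp at 45% of the eIF genes in replicate 1, against 32.4%, and at 50% in replicate 2, against 28.8%. The median distances were 173.5 bp against 192 bp in replicate 1, a small gap, and 103.5 bp against 221 bp in replicate 2. The strongest optimal summits farther than 100 bp from the TSS were those of eIF2Bbeta at 670 bp, eIF1 at 326 bp and eIF2beta at 301 bp. Of these, the first 2 lie nearer to another gene.

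**Figure D3:**
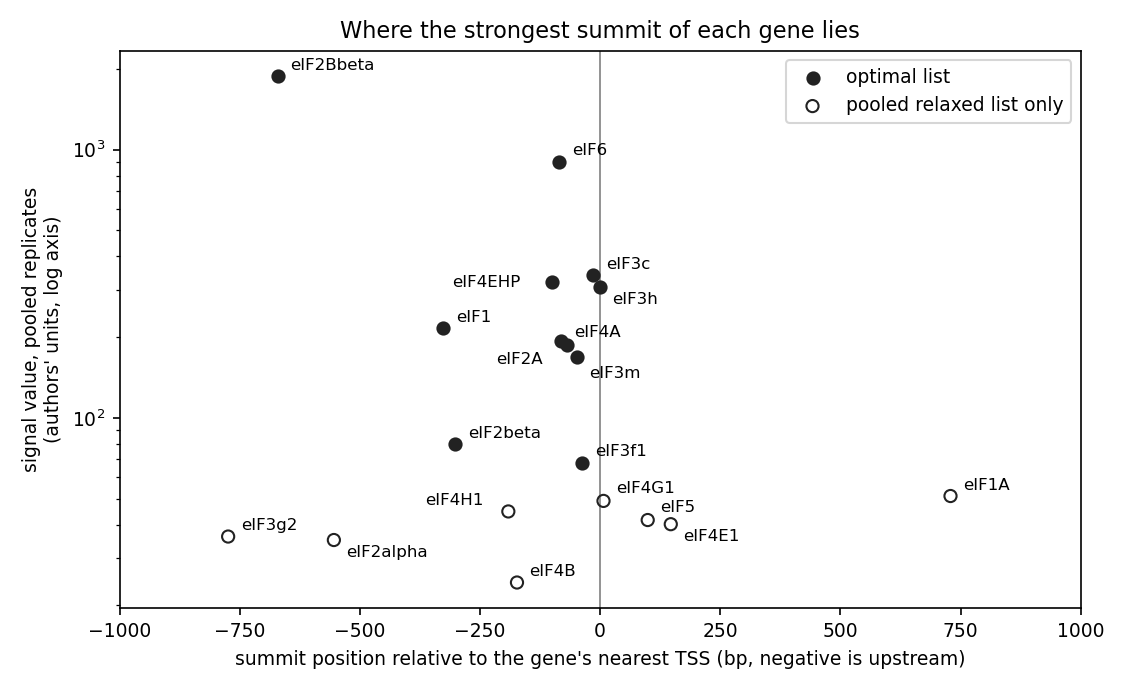
Position of the strongest summit relative to the nearest TSS of each eIF gene in bp, negative upstream, against its pooled signal value on a log axis, with filled points for the 11 genes with an optimal region and open points for the 8 with a pooled relaxed region only. The filled points lie between 670 bp upstream and 1 bp upstream, 8 of them within 100 bp.

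Many of these promoters lie close to another gene, in either direction. The strongest optimal region was also within 1000 bp of a TSS of another protein-coding gene at 7 of 11 eIF genes, 63.6%, against 54.4% of all genes with an optimal region. Its nearest protein-coding TSS was that of the eIF gene itself at 9 of 11, 81.8%, against 73.6% of all genes, with Ugalt and RpL28 nearer at the rest. When the TSSs of all annotated genes were counted, the eIF gene was nearest at 8 of 11. Of the 23 eIF genes with another gene's TSS within 1000 bp, 8 had an optimal region, 34.8%, against 32.0% of all such genes, and of the 21 eIF genes without such a neighbour 3 had one, 14.3%, against 16.1%. An optimal region was thus listed more often for a gene with a close neighbour, to a like degree among eIF genes and among all genes, and 52.3% of the eIF genes had such a neighbour, against 42.9% of all genes.

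The number of annotated TSSs also moved with the count. Of the 29 eIF genes with 1 TSS, 6 had an optimal region, 20.7%, against 16.4% of all genes with 1 TSS. Of the 15 eIF genes with more, 5 had an optimal region, 33.3%, against 40.9% of all such genes. More than 1 optimal summit was near eIF1, eIF4A and eIF4EHP, 27.3% of the 11 eIF genes with an optimal region. The share was 24.7% of all genes with an optimal region. The summits at eIF4EHP lie in the same region, since each listed summit was counted.

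A further 8 eIF genes had a region in the pooled relaxed list but not in the optimal list, at ranks 8013 to 18691 of 30000. Among these were the genes of the remaining core of eIF4F and of the regulated subunit of eIF2. eIF4G1, the scaffold that joins the cap-binding protein to eIF3, had a signal value of 49.0 in the pooled list, rank 8427, 7 bp downstream of its TSS, with 37.5 in replicate 2 at 2 bp upstream, and its strongest region in replicate 1 was another, of 16.8 at 883 bp downstream. eIF4E1, the main cap-binding protein, had 40.1, rank 10549, 147 bp downstream, with 38.1 in replicate 1 at 150 bp downstream and 34.2 in replicate 2 at 83 bp upstream. These values lay below the lowest of the optimal list.

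eIF2alpha, the subunit whose phosphorylation restrains initiation under stress, had a signal value of 35.0 in the pooled list, rank 12291. Its pooled summit lay 554 bp upstream, and it had 13.4 in replicate 1 at the same place and 16.2 in replicate 2 at a summit 378 bp upstream. eIF2gamma, the GTP-binding subunit of the same complex, had no region in any list. The eIF2 complex was thus represented in the optimal list by its beta subunit alone.

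Among the factors of scanning, eIF1A, which acts with eIF1 in the decoding site, had the highest pooled signal value of the eIF genes without an optimal region. Its pooled signal value was 51.1, rank 8013, at a summit 729 bp downstream of the TSS. The strongest region in replicate 1 had 43.5 at 690 bp downstream, whereas that in replicate 2 had 68.4, rank 1790, at 92 bp upstream. Each replicate list held 2 regions near eIF1A and the pooled list 1, so only the places of the strongest regions are compared here. eIF5, which triggers GTP hydrolysis on eIF2, had 41.6, rank 10122, at 99 bp downstream, and eIF5B and eIF2D had no region in any list. The eIF5 summit lies at the same distance from a TSS of CG46312.

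Of the partners of the helicase, eIF4H1 and eIF4B were in the relaxed list only and eIF4H2 was in no list. eIF4H1 had a pooled signal value of 44.8, rank 9340, at 191 bp upstream, and this summit lies nearer to CG34015, 172 bp upstream of its TSS. eIF4B, which stimulates eIF4A, had 24.3, rank 18691, at 173 bp upstream with no region in replicate 1. eIF3g2, a paralog of the RNA-binding subunit of eIF3, had 36.1, rank 11883, at 774 bp upstream. The eIF3g2 summit lies in a coding exon of Tmlh, 380 bp downstream of the Tmlh TSS. None of these 3 eIF genes had a replicate signal value above 33.2.

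Regions of a replicate list without a pooled one were near 4 eIF genes. At eIF4E6, a paralog of the cap-binding protein, both replicates listed a summit at nearly the same place, with a signal value of 41.8 in replicate 1, rank 6604, 29 bp upstream, and 26.5 in replicate 2, rank 6280, 32 bp upstream. These values are close to those of eIF3f1, 43.5 and 26.3 in the same lists, which had an optimal region. No pooled region was listed near eIF4E6 in the lists used here. The others were eIF3l with 39.6 in replicate 1 at rank 7076, eIF3f2 with 12.8 in replicate 2 at rank 17270, and eIF2Bgamma.

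The remaining 21 eIF genes had no region within 1000 bp in any list. They were eIF2Balpha, eIF2Bdelta, eIF2Bepsilon, eIF2D, eIF2gamma, eIF3a, eIF3b, eIF3d1, eIF3d2, eIF3e, eIF3g1, eIF3i, eIF3j, eIF3k, eIF4E3, eIF4E4, eIF4E5, eIF4E7, eIF4G2, eIF4H2 and eIF5B. Among them were the core eIF3 subunits eIF3a and eIF3b, whose partner eIF3c had one of the stronger regions, and the eIF4G paralog eIF4G2, which acts in the male germ line. Absence from a list says only that no region was called there.

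No complex had optimal regions at all of its genes, apart from eIF6, which is encoded by 1 gene. Of the 4 genes for eIF2 and eIF2A, 2 had an optimal region and 3 had a region in both replicate lists. The counts were 1 optimal and 1 in both replicates of 5 for eIF2B, 4 optimal and 5 in both of 16 for eIF3, and 2 optimal and 5 in both of 10 for eIF4F and the cap-binding proteins. Of the 5 factors of scanning and start codon choice, 1 had an optimal region and 3 had a region in both replicates, and of the 3 genes for eIF4B and eIF4H none had an optimal region and 1 had a region in both. Over all genes the shares were 22.9% with an optimal region and 36.8% with a region in both replicate lists, and counts of this size set no complex apart from them and give no order among the complexes.

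**Figure D4:**
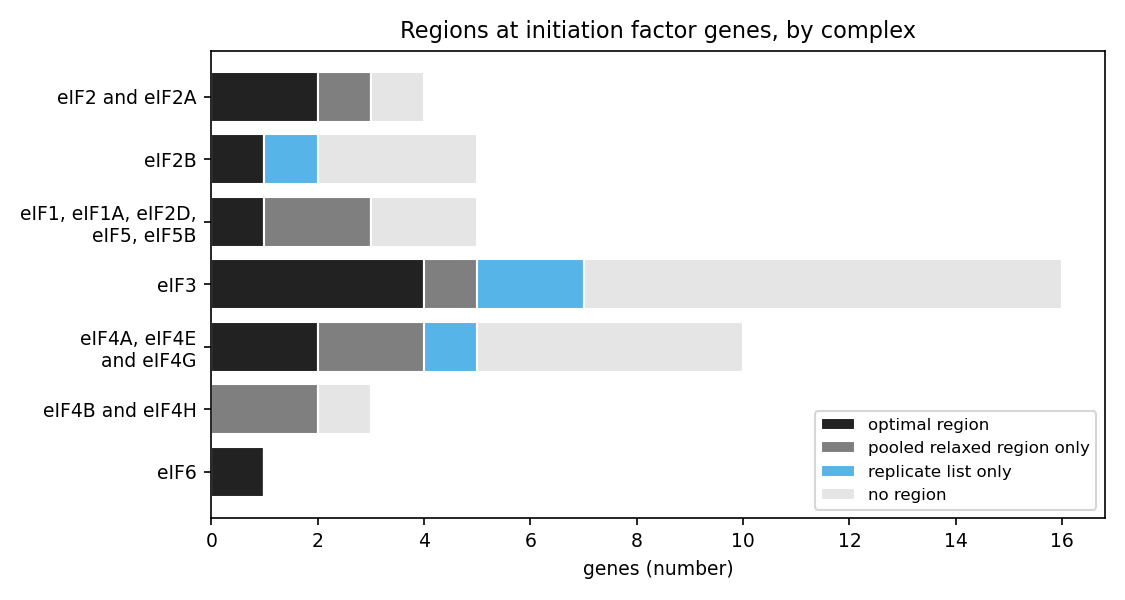
Number of eIF genes in each complex or role by the strictest list that holds a region within 1000 bp of a TSS: the optimal list, the pooled relaxed list only, a replicate list only, or none. Of the 16 eIF3 genes 4 had an optimal region and 9 had none in any list.

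Paralogs differed in their regions. Of the genes for eIF4E and its relatives, eIF4EHP had an optimal region, eIF4E1 a pooled relaxed one and eIF4E6 replicate regions, and eIF4E3, eIF4E4, eIF4E5 and eIF4E7 had none. eIF3f1 had an optimal region and eIF3f2 one in replicate 2 only, whereas eIF3d1 and eIF3d2 had none. eIF3g2 had a pooled region and eIF3g1 had none. The expression of the genes in these larvae was not measured.

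By chromosome arm, optimal regions were near 2 of 3 eIF genes on 2L, 3 of 9 on 2R, 3 of 11 on 3L, 2 of 13 on 3R, 1 of 7 on X and none of 1 on chromosome 4. The shares over all genes of these arms were 23.5% on 2L, 20.4% on 2R, 24.5% on 3L, 23.4% on 3R, 22.4% on X and 35% on chromosome 4, and counts this small show no order among the arms. A summit of the optimal list lay within 2000 bp of 13 eIF genes, 29.5%, against 27.4% of all genes, and within 5000 bp of 14, 31.8%, against 39.2%. Within 10000 bp there were 22 of the 44 eIF genes, against 53.7% of all genes, and within 20000 bp 31, 70.5%, against 71.7%. The 33 eIF genes without an optimal region had their nearest optimal summit at a median of 15538 bp, against 13636 bp for all genes without one.

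Inside the bodies of eIF genes, 8 optimal summits were found, of which those at eIF2A, eIF3h and eIF4A have been described. Introns of eIF4EHP held 3 more, at 2494 bp with a signal value of 168, at 3194 bp with 70.2 and at 9773 bp with 69.3, all downstream of the nearest TSS of the gene, and that at 3194 bp lies 3 bp from the TSS of Syx1A, a syntaxin gene. An intron of eIF5B held a summit of 132 at 27733 bp, and an intron of eIF4G1 held one of 97.1 at 7914 bp. eIF5B and eIF4G1 thus had an optimal region in an intron although none lay within 1000 bp of a TSS.

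The bases under the summits were searched on both strands for 9 fixed motifs within 100 bp of the strongest optimal summit. The element TATCGATA, the DNA replication-related element bound by DREF at promoters of growth and housekeeping genes, was near 4 of 11 summits, those of eIF1, eIF2A, eIF3f1 and eIF6. The eIF1 summit counted here lies 55 bp from the TSS of RpL28. The element was not found between 250 bp upstream and 50 bp downstream of the eIF1 TSS. TATCGATA was near 4.04% of all 5817 optimal summits and near 7.09% of the 3130 optimal summits within 1000 bp of a protein-coding TSS. GGTCACAC, the core of the motif of the factor M1BP, was near 1 summit, that of eIF2A, against 2.10% of all optimal summits. TATAAA was near the summits of eIF3m and eIF6, against 31.4% of all.

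CAAAGTCCA, the core of a motif that HNF4 proteins are known to bind, was near none of the 11 summits and near 61 of 5817, 1.05%. Widening the window to 500 bp gave none of 11 at the eIF genes and 123 of all summits, 2.11%. The letters of the Myc and Max E-box CACGTG, of GAGAGAG bound by GAGA factor, of the GATA site AGATAAG, of the cyclic AMP response element TGACGTCA and of the ATF4-type site TGATGCAA were also near none of the 11, against 2.15%, 6.05%, 2.92%, 0.344% and 0.584% of all optimal summits. TATCGATA, CACGTG and TGACGTCA read the same on both strands, and no motif searched contains another. A search for fixed letters does not find sites that differ from them by a base.

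The promoter windows of all eIF genes, 250 bp upstream to 50 bp downstream of each TSS, were searched in the same way. TATCGATA was found at 13 of 44 eIF genes, 29.5%, against 1420 of 13981 protein-coding genes with such a window, 10.2%. GGTCACAC was found at 8 eIF genes, 18.2%, against 8.69%, and CACGTG at 4, 9.09%, against 5.32%. GAGAGAG was found at 4, 9.09%, against 9.07%, and AGATAAG at 2, 4.55%, against 5.98%.

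TATAAA was in the promoter window of 20 eIF genes, 45.5%, against 51.3% of all genes. TGATGCAA was in that of 1 eIF gene, 2.27%, against 1.09%. CAAAGTCCA and TGACGTCA were in none, against 0.408% and 0.722% of all genes. The sets of genes with TATCGATA and with an optimal region overlapped: the element was in the window of 6 of the 11 eIF genes with an optimal region, 54.5%, and of 7 of the 33 without, 21.2%, against 16.3% and 8.32% of all genes with and without an optimal region. Among genes with 1 TSS the shares with TATCGATA were 27.6% of eIF genes, 8 of 29, and 9.16% of all genes, a gap of like size to that over all TSS numbers.

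**Figure D5:**
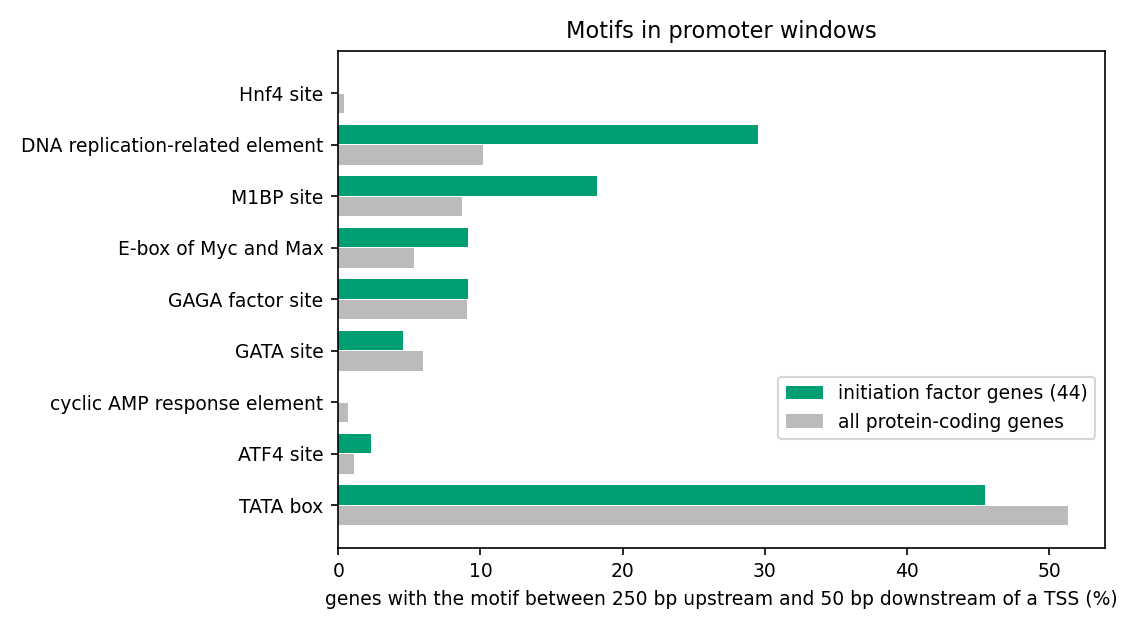
Percent of genes with each motif on either strand between 250 bp upstream and 50 bp downstream of a TSS, for the 44 eIF genes and for all protein-coding genes. The DNA replication-related element is at 29.5% of the eIF genes and 10.2% of all genes, and the TATA box at 45.5% and 51.3%.

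The element is printed for 9 of the 13 genes to show that the same letters occur at genes with an optimal region, with weaker regions and with none. Each line gives TATCGATA in capitals with 10 bases on each side, 5′ to 3′ on the strand of the gene, from the RefSeq genome of Release 6 (dm6). The first 4 genes have an optimal region, at chrX:2704589-2704616 (plus strand), chr2L:5981702-5981729 (plus), chr3L:21824866-21824893 (plus) and chr3R:4714173-4714200 (minus). eIF2alpha (chrX:16446989-16447016, minus) and eIF4B (chr3L:27858273-27858300, minus) have a pooled relaxed region, and eIF4E6 (chr3R:29027215-29027242, minus) has replicate regions. eIF2gamma (chr3R:15263450-15263477, minus), where the nearest of 3 copies is shown, and eIF3a (chr3R:4433916-4433943, minus) have none.
eIF2Bbeta: gcctgccgccTATCGATAacattgctcg
eIF4A: gcgatcgatcTATCGATAgtcgctaatg
eIF2A: tactatcgctTATCGATAcaccgcgtac
eIF3f1: ccacccgcacTATCGATAggcccttttc
eIF2alpha: cgcaattaaaTATCGATAacaccactgt
eIF4B: ccgaaataaaTATCGATAacgatatagg
eIF4E6: tcacgcgataTATCGATAtgtttcgatt
eIF2gamma: attagagcacTATCGATAggcattgtcg
eIF3a: cggcctgaacTATCGATAacgcagccag

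The distance between the element and the TSS varied. Its bases run from 8 to 1 bp upstream of the TSS at eIF3f1, from 9 to 2 bp upstream at eIF2gamma and from 13 to 6 bp upstream at eIF2alpha. At eIF4B they run from 19 to 12 bp upstream, at eIF3a from 38 to 31 bp, at eIF4A from 52 to 45 bp, at eIF4E6 from 58 to 51 bp and at eIF2A from 89 to 82 bp. Of the genes not printed, the element runs from 11 to 4 bp upstream at eIF6 and from 18 to 11 bp upstream at eIF3l, but from 220 to 213 bp upstream at eIF3c and from 202 to 195 bp upstream of the nearer TSS at eIF1A. At eIF2Bbeta it begins 28 bp downstream of the TSS and lies apart from the region, whose summit is 670 bp upstream. At eIF4A it also lies apart from the strongest region, at another TSS than the one nearest to that summit.

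A pyrimidine initiator of translation genes, TCTTT with its C within 5 bp of a TSS, was searched for after the data had been seen. It was found at 3 of 44 eIF genes, 6.82%, namely eIF3i, eIF3m and eIF4A, against 311 of 13981 genes, 2.22%. Of 92 genes with symbols of cytosolic ribosomal proteins it was found at 45, 48.9%. The share of the eIF genes was thus closer to that of all genes than to that of the ribosomal protein genes.

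Genes that act with the initiation factors were taken from 5 lists, of which 54 genes were matched in the annotation and 30 had an optimal region, 55.6%, against the background of 22.9%. The lists were put together with earlier results of these data known, so this share is no independent evidence. Of 12 genes that regulate eIF4E and eIF4F, 8 had an optimal region, led by Lk6, the kinase of eIF4E, with a signal value of 1311, by larp, which binds mRNAs of the translation machinery, with 1195, and by Thor, the inhibitory eIF4E-binding protein, with 289. Of 4 matched genes around eIF2 phosphorylation, PPP1R15, a phosphatase subunit, had 119 and crc, the fly ATF4, had 94.4, whereas the kinases PEK and Gcn2 had no pooled region.

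Of 10 matched initiation factors with other symbols, 5 had an optimal region, led by Rack1, a ribosomal scaffold, with 283, by pAbp, the poly(A)-binding protein, with 269, and by NAT1, a relative of eIF4G, with 191. Of 16 matched elongation and termination factors 9 had one, led by eRF1 with 220, eEF1alpha1 with 177 and eEF2 with 153. Of 12 matched genes of mTORC1 and Myc control 6 had one, led by REPTOR, a transcription factor restrained by mTORC1, with 713, by Akt with 215 and by Rheb, the activator of mTORC1, with 157. Signal values at Lk6 and larp thus stood above those of all eIF genes but eIF2Bbeta.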

How the data were processed

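Chromatin immunoprecipitation and sequencing of tagged Hnf4 was made in 2 biological replicates of whole larvae. Per the deposited file descriptions, relaxed lists of regions were made for each replicate and for the pooled replicates, each against a control, and optimal regions were those that passed the irreproducible discovery rate, in build dm6. Which aligner and caller were run, and the scale of the signal, was not given in the sources used here. Each region was deposited by the authors with a signal value, a −log10 q-value and a summit offset, the place of the summit within the region. Ranks rest on the signal value. Lists on build dm3 were not used.

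A gene was given a region whose summit lay within 1000 bp of a TSS of any of its transcripts, and the strongest one was kept. Overlap meant at least 1 bp. Promoters were searched from 250 bp upstream to 50 bp downstream of each TSS and summits within 100 bp, on both strands. Assignment and searches used Python 3.11.15 with pandas 2.3.3. The assignment was tested on simulated regions. Every eIF gene is named, and pathway genes are the 3 with the highest signal value in each list. The genes, lists and motifs were chosen with earlier results of these data known. Alternatives were other distances, nearest-gene assignment, stricter lists, either replicate alone and other motif windows.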

Additional observations from a re-analysis of the deposited data

How the results depend on the processing

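The count of 11 eIF genes with an optimal region was 10 within 500 bp, 13 within 2000 bp, 10 with the nearest gene only, 9 with only the stronger regions of the list, above its median, and 9 with support from the strongest regions of both replicates. Without replicate 1, the 5817 strongest regions of the replicate 2 list took the place of the optimal list. They were near 14 eIF genes, 31.8%, against 24.2% of all genes. Without replicate 2, the 5817 strongest regions of the replicate 1 list were near 9 eIF genes, 20.5% against 24.5%. These relaxed regions were not selected by the reproducibility threshold. The share thus lay above that of all genes with the replicate 2 list and below it with the replicate 1 list. eIF1A, eIF2Bgamma, eIF4E1 and eIF4G1 entered without replicate 1, where eIF3f1 was lost, and eIF2beta and eIF3f1 were lost without replicate 2. The count in both replicate lists, 19, moved to 9 when only as many of the strongest regions of each replicate were used as the optimal list holds, against 19.4% of all genes, since fewer regions were used. The other 19 recomputed summary values stayed within set limits. For counts the limit was a ratio to the main count. For the median signal value it was the SD of the 2 replicate medians, 43.7, which come from lists scaled on their own. Those limits did not ask whether a share changed side relative to all genes, as it did without replicate 2. TATCGATA was near 3 summits within 50 bp and 5 within 250 bp. No paired analysis was possible because the samples form 1 group. The lists hold called regions without reads, so depth, the level of binding at genes without a region and the difference between replicates in sequencing could not be assessed, and the shared promoters of eIF2Bbeta and eIF1 cannot be split.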

Other observations

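The pooled relaxed list lacked some regions that both replicate lists held. Of 5071 regions among the strongest 7000 of replicate 1 that overlapped one among the strongest 7000 of replicate 2, 102 overlapped no region of the pooled list, 2.01%, and eIF4E6 was among the genes near them. The same was seen at l(2)34Fd, a gene of the list of initiation factors with other symbols, which had a signal value of 121 in replicate 1 and 85.3 in replicate 2 and no pooled region in the lists used here. The limit of 7000 was chosen after the values of eIF4E6 had been seen, and the cause was not tested.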
